A study of Mus musculus with 6 samples.

Results

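The SMAD family and the Smurf ligases were read out of RNA-seq counts of sorted mouse lung alveolar type 2 (AT2) cells. The set was picked out by gene symbol and holds the 8 mouse SMAD genes together with *Smurf1* and *Smurf2*. All 10 were among the 24421 genes of the count table, and all 10 were among the 16723 genes that passed the filter on low counts. The study asked how signaling through the BMP receptor BMPR1a acts on AT2s, and the comparison here asks how transcripts of the SMAD branch of that pathway differ when the receptor is constitutively active. AT2CTRL cells came from mice with 1 *Sftpc-CreERT2* allele and 1 *R26-tdTomato* allele. AT2CAB cells came from mice with the same *Sftpc-CreERT2* allele, *R26-tdTomato* on 1 copy of the *Rosa26* locus and *R26-caBmpr1a*, which encodes a constitutively active BMPR1a, on the other. Mice of both groups received tamoxifen, which activates the CreERT2 recombinase. Each group had 3 libraries. The labels number them as replicates without stating that each came from a separate mouse, so p-values measure the spread between these libraries. AT2CTRL replicate 2 and AT2CAB replicate 1 were from mice 16 weeks old and the other 4 libraries from mice 12 weeks old.

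The model has limits that bear on every value. Recombination depends on the *Sftpc* promoter, which is active in AT2s, and cells were sorted on the tdTomato label. That label reports recombination of the tdTomato allele and not of the *caBmpr1a* allele. According to the study, some labeled cells may have recombined only the former, as indicated by stained cultures, so an AT2CAB library may hold both kinds of cell.

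As background, BMP and TGFβ ligands assemble type I and type II receptors, and the type I receptor phosphorylates receptor-activated SMAD proteins. BMP receptors act mainly on the products of *Smad1*, *Smad5* and *Smad9* and TGFβ and activin receptors on those of *Smad2* and *Smad3*. Both classes bind the common partner encoded by *Smad4* and enter the nucleus, where they regulate transcription. The inhibitory SMADs, encoded by *Smad6* and *Smad7*, block receptors or receptor-activated SMADs, and the Smurf proteins are ubiquitin ligases that target SMADs and receptors for degradation. In the alveolus, AT2s make surfactant and act as progenitors of the thin AT1 cells, and BMP signaling is known to act in lung development.

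The libraries held 22909120, 24490233 and 27915100 counts in AT2CTRL replicates 1, 2 and 3, and 21554249, 24716504 and 28440227 counts in AT2CAB replicates 1, 2 and 3. Values are given below as CPM, read counts divided by the TMM-scaled library size, in the order of replicates 1, 2 and 3. A total of 3 counts, taken as the floor of detection, corresponded to between 0.0976 and 0.138 CPM, which covers counting error only. AT2CTRL replicate 1 had 176 CPM and AT2CAB replicate 3 had 146 CPM summed over *Eif2s3y*, *Kdm5d*, *Uty* and *Ddx3y*, which are Y-linked, while the other 4 libraries had 0. The same 2 libraries had the lowest scores on the first principal component, which held 49.3% of the variance. Results are therefore also given within the 4 libraries free of such reads and, as a single pair with no test, in the 2 libraries with them.

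The AT2 label was checked against cell type markers. The 10 AT2 markers summed to 132649, 121379 and 117532 CPM in AT2CTRL and to 112240, 103598 and 100315 CPM in AT2CAB, led by the surfactant gene *Sftpc* with a mean of 48764 CPM in AT2CTRL and 43992 CPM in AT2CAB. Every AT2CAB sum lay below every AT2CTRL sum, and the part of this in other values was not tested. All 10 AT2 markers were present in both groups and 0 were called by edgeR, DESeq2 or limma-voom, with 0 higher and 4 lower at an unadjusted p under 0.05, against 4.62% higher and 5.05% lower among all tested genes at that p. Of the AT2 markers 1 had a positive log2 fold change, and their median was -0.30. Markers of other cells were present at lower levels. The 12 endothelial markers summed to 311, 642 and 405 CPM in AT2CTRL and to 562, 909 and 634 CPM in AT2CAB, and the 10 mesenchymal markers to 159, 210.1 and 189 CPM and to 250.1, 312 and 276 CPM. All 12 endothelial markers had a positive log2 fold change, with a median of 0.62, as had all 10 mesenchymal markers, with a median of 0.41. The most abundant of each were *Cdh5*, with means of 80.1 and 129 CPM in AT2CTRL and AT2CAB, and *Col3a1*, with 39.6 and 67.5 CPM. edgeR, DESeq2 and limma-voom called 0 genes of either list, 7 endothelial and 3 mesenchymal markers were higher at an unadjusted p under 0.05, and none of them was at 0 in all libraries. The 12 leukocyte markers summed to 66.8, 73.9 and 78.0 CPM in AT2CTRL and to 149.96, 93.3 and 62.3 CPM in AT2CAB, with *Cd68*, at means of 22.1 and 20.3 CPM, the most abundant. Although these sums overlapped, 11 of the 12 had a positive log2 fold change, with a median of 0.72, and 1 was higher at an unadjusted p under 0.05. The 10 AT1 markers summed to 3351, 3143 and 2522 CPM and to 2903, 3302 and 2716 CPM, led by *Ager*, with 8 of 10 positive, a median log2 fold change of 0.33, and 1 higher and 1 lower at an unadjusted p under 0.05. The 8 airway markers summed to 825, 909 and 723 CPM and to 838, 1175 and 1219 CPM, led by *Scgb1a1*, with 4 of 7 tested genes positive and a median of 0.17. *Tppp3* was the airway marker called higher, a call lost without AT2CTRL replicate 1, 2 or 3 or AT2CAB replicate 2, and the club cell marker *Cyp2f2* was lower at an unadjusted p under 0.05, with all AT2CAB values below all AT2CTRL values. Of 2 basal cell markers, *Krt5* was at 0 in all libraries and *Trp63* had 41, 59 and 27 counts in AT2CTRL and 71, 36 and 126 counts in AT2CAB. The 6 erythroid markers include 4 hemoglobin genes, which overlap or are nearly identical so that this counting can miss them, and the list summed to 6.90, 0.857 and 0.457 CPM and to 2.29, 0.621 and 1.95 CPM, led by *Alas2*. Fewer cells of a type and less RNA per cell cannot be told apart in such bulk samples.

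*Bmpr1a*, the gene that the allele modifies, had 105, 129.9 and 125 CPM in AT2CTRL and 131, 128 and 96.8 CPM in AT2CAB. The groups overlapped, and whether reads from the *caBmpr1a* allele were counted on this gene was not tested. Of the 10 SMAD and Smurf genes, 2 were called higher in AT2CAB, *Smad9* and *Smad6*, where called means more than a 2-fold change and, in edgeR's quasi-likelihood test, a p under 0.05 after Benjamini-Hochberg adjustment over all tested genes. The share called higher among all tested genes was 0.227%, or 38 of 16723. None of the 10 was called lower by edgeR, DESeq2 or limma-voom, against 0.0120% or 2 of all tested genes called lower by edgeR. At an unadjusted p under 0.05, 3 of the 10 were higher, *Smad9*, *Smad6* and *Smad7*, and 0 lower, against 4.62% and 5.05% of the tested genes. In 3 of the 10 genes, *Smad9*, *Smad6* and *Smad7*, all AT2CAB values lay above all AT2CTRL values, which held for 7.0% of the tested genes, and in 0 of the 10 they all lay below, which held for 10.1%. The calls depended on single libraries. The number of SMAD and Smurf genes called higher was 3 without AT2CAB replicate 1 and 1 without any other single library, and *Smad9* was always among them. Among all genes, 12, 6 and 7 were called higher without AT2CTRL replicates 1, 2 and 3, and 59, 8 and 25 without AT2CAB replicates 1, 2 and 3. The numbers called lower were 1, 0 and 0, and 4, 0 and 2, in the same order.

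The promoters of the 2 called genes are shown beside that of *Smad1*, the paralog of *Smad9* that was measured at nearly the same level in both groups. RefSeq promoters on GRCm38.p6 were taken from 250 bases before to 50 bases after a transcription start. Those of 7 of the 10 genes were used, with 9 promoters in all. Those of *Smad2*, *Smad4* and *Smad7* were left out and are not reported here. The 9 promoters were searched on both strands for GGCGCC, a GC-rich motif bound by BMP-activated SMADs, for CAGAC, the SMAD box, and for GTCTAGAC, the SMAD palindrome. The palindrome does not contain CAGAC on either strand and none of the motifs contains another. Capitals mark the matches, and each sequence is written 5′ to 3′ on the strand of its gene. The *Smad9* promoter lies at chr3:54755332-54755631 on the plus strand, that of *Smad6* at chr9:64022010-64022309 on the minus strand and that of *Smad1* at chr8:79399379-79399678 on the minus strand.
Smad9: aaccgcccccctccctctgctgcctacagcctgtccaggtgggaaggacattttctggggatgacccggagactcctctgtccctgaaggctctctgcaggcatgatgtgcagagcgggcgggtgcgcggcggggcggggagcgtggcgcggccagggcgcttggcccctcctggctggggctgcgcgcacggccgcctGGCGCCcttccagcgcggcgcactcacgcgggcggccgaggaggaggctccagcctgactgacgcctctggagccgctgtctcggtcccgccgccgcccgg
Smad6: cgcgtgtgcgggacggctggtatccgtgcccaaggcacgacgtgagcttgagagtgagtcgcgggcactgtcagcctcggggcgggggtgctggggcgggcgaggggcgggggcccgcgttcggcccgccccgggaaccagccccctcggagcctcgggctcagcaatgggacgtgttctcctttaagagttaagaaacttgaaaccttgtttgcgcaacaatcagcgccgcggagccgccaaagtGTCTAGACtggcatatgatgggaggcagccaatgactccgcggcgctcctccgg
Smad1: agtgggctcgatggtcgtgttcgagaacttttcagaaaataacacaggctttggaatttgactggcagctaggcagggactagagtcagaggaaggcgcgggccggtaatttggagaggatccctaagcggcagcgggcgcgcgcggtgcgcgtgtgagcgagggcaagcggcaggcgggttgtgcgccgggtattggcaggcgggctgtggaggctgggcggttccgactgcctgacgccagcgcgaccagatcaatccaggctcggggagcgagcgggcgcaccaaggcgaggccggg
The *Smad9* promoter held GGCGCC once, with its first base at -51 from the start, and no match to the other motifs. The *Smad6* promoter held GTCTAGAC once, with its first base at -4. The *Smad1* promoter held none of the 3 motifs in this window. Among all 32851 promoters of the table, 11.9% held GGCGCC, 49.6% held CAGAC and 0.213%, or 70 promoters, held GTCTAGAC. Among the 9 promoters used from the set, 4 held GGCGCC (*Smad9*, *Smurf2* and 2 overlapping windows of *Smad5*), 3 held CAGAC (*Smad5*, *Smurf1* and *Smurf2*) and 1 held GTCTAGAC. *Smad5* and both Smurf genes, which were not called, thus also held motifs. The share of G and C was 73.7% for *Smad9*, 66.3% for *Smad6* and 65.0% for *Smad1*, against a median of 52.7% over all promoters. A match describes the letters and is not evidence of a binding site.

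Among the receptor-activated SMADs of the BMP branch, *Smad9* had the largest difference of the 10 genes. *Smad9*, whose product is also called SMAD8, lies at chr3:54755582-54801269 in mm10. It had 3.00, 5.66 and 3.58 CPM in AT2CTRL, from 67, 132 and 94 counts, and 35.7, 48.1 and 42.6 CPM in AT2CAB, from 779, 1241 and 1309 counts. It was thus low in each control library and well above them in each AT2CAB library, and the lowest AT2CAB value was 6.31 times the highest AT2CTRL value. The mean was 4.08 ± 1.40 CPM in AT2CTRL and 42.2 ± 6.23 CPM in AT2CAB (SD, n = 3). *Smad9* rose in AT2CAB with a log2 fold change of 3.37 (standard error 0.25, Benjamini-Hochberg adjusted p = 0.00289, edgeR quasi-likelihood test), a 10.3-fold difference with a 95% confidence interval from 6.98 to 15.3. An exact permutation test of 3 libraries against 3 cannot go below 0.1, so none is given. The log2 fold change was 3.23 in the 4 libraries free of Y-linked reads and 3.83 in the pair with them. In the 4 libraries from mice 12 weeks old it was 3.78, and in the pair from mice 16 weeks old it was 2.66.

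The other receptor-activated SMADs of the BMP branch did not follow *Smad9*. *Smad1* had 41.6, 39.5 and 44.6 CPM in AT2CTRL and 42.7, 43.3 and 41.5 CPM in AT2CAB. Its values were within a few CPM of each other in all 6 libraries, and the AT2CAB values lay inside the range of the controls. The log2 fold change was 0.02 (standard error 0.10), with a 95% confidence interval from -0.22 to 0.26, so that a difference as large as the 2-fold threshold lies outside the interval. *Smad5* had 93.8, 111 and 118 CPM in AT2CTRL and 101, 101 and 69.4 CPM in AT2CAB. The groups overlapped, with AT2CAB replicate 3 the lowest of all libraries, and the log2 fold change was -0.25 (standard error 0.17, Benjamini-Hochberg adjusted p = 0.665, edgeR quasi-likelihood test).

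**Figure D1:**
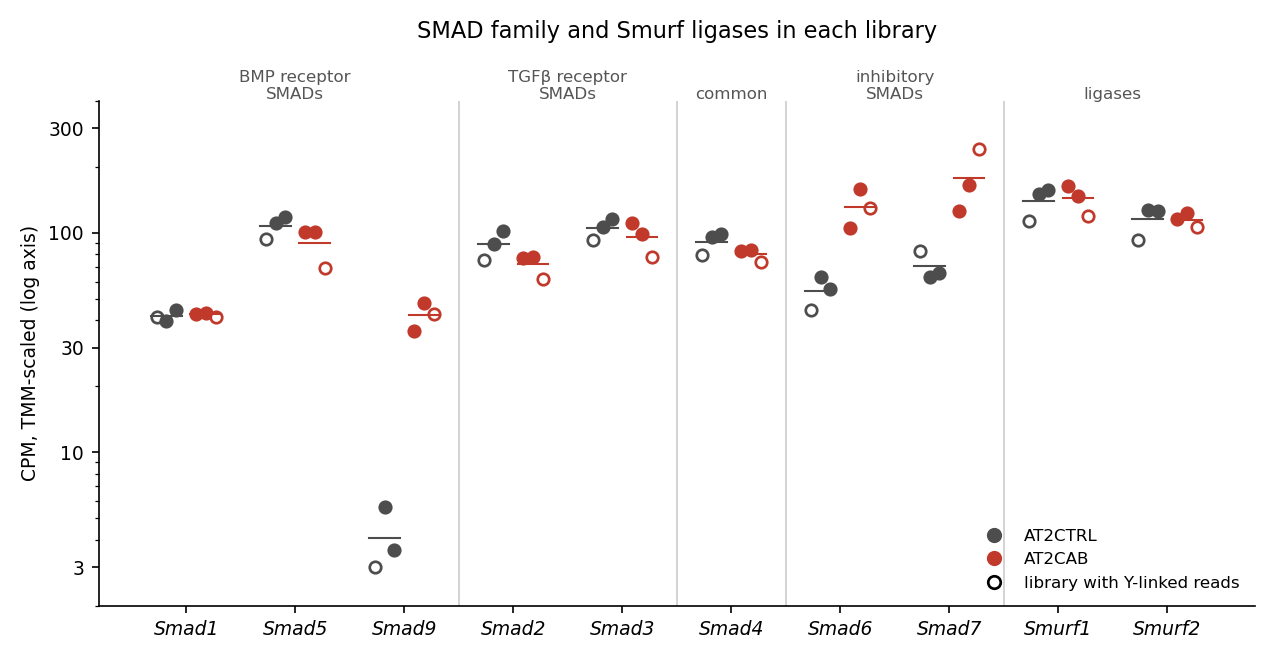
CPM after TMM scaling (log axis) of the 10 genes in each library, with AT2CTRL in gray and AT2CAB in red, horizontal bars at the group means and open circles for the 2 libraries with Y-linked reads. *Smad9* (3.00 to 5.66 CPM against 35.7 to 48.1 CPM), *Smad6* and *Smad7* have AT2CAB values that all lie above the AT2CTRL values, and the other 7 genes overlap.

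The receptor-activated SMADs of the TGFβ and activin branch were not called. *Smad2* had 75.4, 88.7 and 102 CPM in AT2CTRL and 76.7, 77.8 and 61.7 CPM in AT2CAB. *Smad3* had 92.4, 107 and 116 CPM in AT2CTRL and 111, 99.2 and 77.5 CPM in AT2CAB. In both genes the lowest value was in AT2CAB replicate 3, the highest in AT2CTRL replicate 3, and the groups overlapped. The log2 fold change was -0.30 (standard error 0.15) for *Smad2* and -0.13 (standard error 0.16) for *Smad3*, with Benjamini-Hochberg adjusted p of 0.570 and 0.824 in the edgeR quasi-likelihood test. *Smad4*, which encodes the partner shared by both branches, had 78.9, 95.5 and 98.9 CPM in AT2CTRL and 82.4, 83.4 and 73.4 CPM in AT2CAB. Its AT2CAB values spanned the lowest control value, and the log2 fold change was -0.19 (standard error 0.12).

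Both inhibitory SMADs had higher values in every AT2CAB library than in any AT2CTRL library, but only *Smad6* passed the threshold in the main edgeR fit, which has no covariates. *Smad6*, at chr9:63953076-64022059 in mm10, encodes an inhibitor that acts chiefly on the BMP branch. It had 44.7, 63.2 and 55.4 CPM in AT2CTRL and 105, 159 and 130.2 CPM in AT2CAB. The lowest AT2CAB value was 1.66 times the highest AT2CTRL value, and the means were 54.4 ± 9.32 and 131 ± 26.7 CPM (SD, n = 3). The log2 fold change was 1.27 (standard error 0.18, Benjamini-Hochberg adjusted p = 0.0431, edgeR quasi-likelihood test), or 2.41-fold with a 95% confidence interval from 1.80 to 3.24. This call was close to the threshold. In the edgeR quasi-likelihood test, the Benjamini-Hochberg adjusted p of *Smad6* was 0.124, 0.152 and 0.216 without AT2CTRL replicates 1, 2 and 3, and 0.0375, 0.214 and 0.0983 without AT2CAB replicates 1, 2 and 3, while the log2 fold change stayed between 1.12 and 1.43. The call was also lost with RLE size factors, limma-voom and age as a covariate and in the libraries from mice 12 weeks old, and adjusted p ranged from 1.3e-06 with DESeq2 to 0.216 over 18 alternatives.

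*Smad7* encodes an inhibitor of both branches. It had 82.9, 63.1 and 65.8 CPM in AT2CTRL and 126, 165 and 240.4 CPM in AT2CAB. AT2CAB replicate 3 was the highest of all libraries, and the lowest AT2CAB value was 1.52 times the highest AT2CTRL value. The means were 70.6 ± 10.8 and 177 ± 58.2 CPM (SD, n = 3), and the log2 fold change of 1.33 (standard error 0.23, 95% confidence interval from 0.79 to 1.86) was close to that of *Smad6*. The Benjamini-Hochberg adjusted p was 0.101 in the edgeR quasi-likelihood test, so *Smad7* was not called. It was called under 5 of the 18 alternatives. These were DESeq2 (adjusted p = 4.5e-06) and, in the edgeR quasi-likelihood test with Benjamini-Hochberg adjusted p, a Y-linked read covariate (0.00166), no expression filter (0.0324), AT2CAB replicate 1 left out (0.0288) and the 4 libraries free of Y-linked reads (0.0170). Over the 18, adjusted p from these tools and limma-voom reached 0.385. In the 4 libraries free of Y-linked reads the log2 fold change was 1.19 for *Smad6* and 1.21 for *Smad7*, and in the pair with reads on Y-linked genes it was 1.54 for both. In the pair from mice 16 weeks old it was 0.74 and 1.00, and in the libraries from mice 12 weeks old 1.52 and 1.44.

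The sums of endothelial and mesenchymal markers were compared with *Smad9*, *Smad6* and *Smad7* in their order over libraries. Within each group, the libraries had the same order for *Smad9*, *Smad6* and the summed endothelial and mesenchymal markers, with replicate 1 the lowest and replicate 2 the highest, whereas *Smad7* had another order. The share of all tested genes with that shared order was not computed, so the match carries little weight. The part of other cell types in the differences of *Smad9*, *Smad6* and *Smad7* was not tested.

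**Figure D2:**
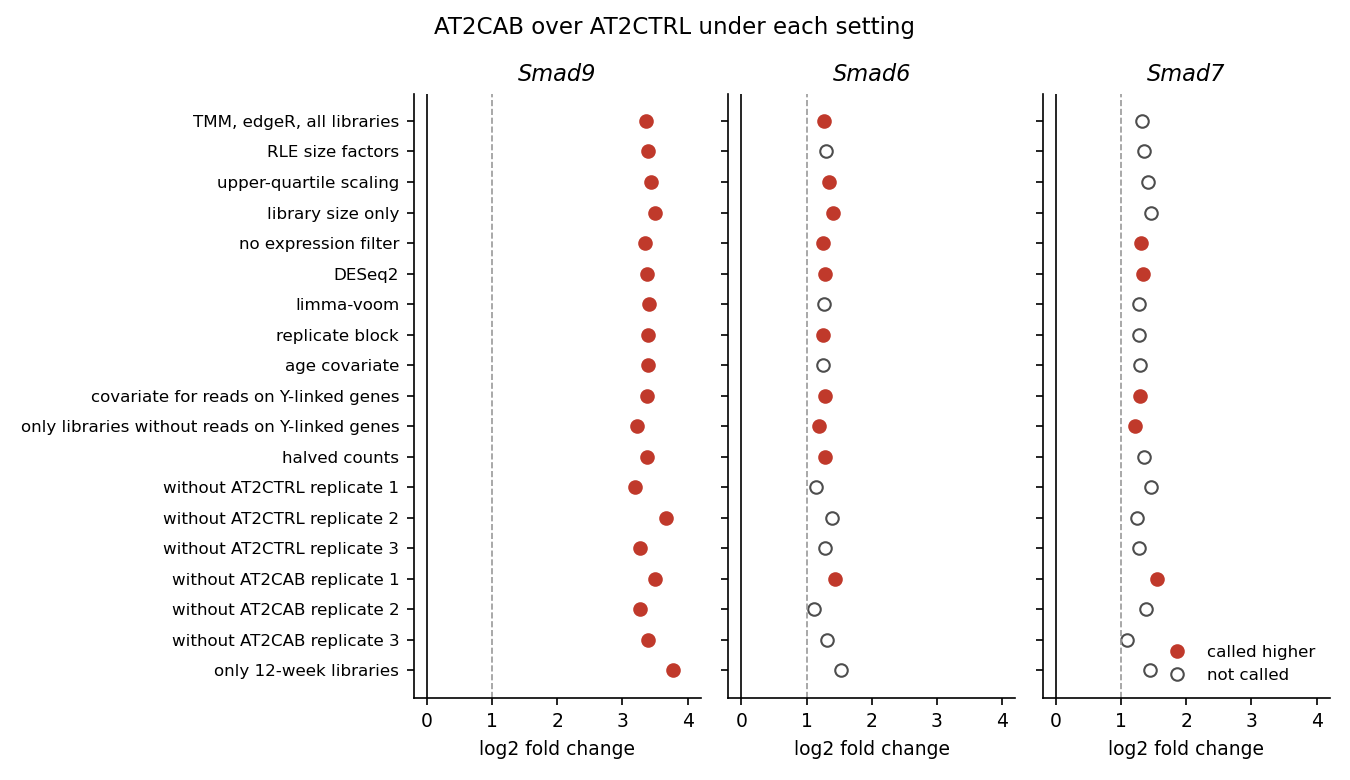
Log2 fold change (AT2CAB over AT2CTRL, x axis) of *Smad9*, *Smad6* and *Smad7* under the main setting at the top and 18 alternatives, with filled red circles where the gene was called and a dashed line at the threshold of 1. *Smad9* was called in all of them, with values from 3.19 to 3.78 among the alternatives, whereas *Smad6* was not called in 9 of the 18 and *Smad7* was called in 5.

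The Smurf ligases had overlapping groups and log2 fold changes near 0. *Smurf1* had 113, 149.7 and 157 CPM in AT2CTRL and 164, 148 and 119.7 CPM in AT2CAB, with a log2 fold change of 0.04 (standard error 0.17). *Smurf2* had 93.3, 128 and 126 CPM in AT2CTRL and 116, 123 and 106 CPM in AT2CAB, and its log2 fold change of -0.01 (standard error 0.15) turned positive with RLE size factors, upper-quartile scaling and library size only. The 95% confidence intervals, from -0.35 to 0.42 for *Smurf1* and from -0.34 to 0.33 for *Smurf2*, lay within the 2-fold thresholds. The Benjamini-Hochberg adjusted p was 0.954 and 0.992 in the edgeR quasi-likelihood test. Among the 7 genes whose groups overlapped, log2 fold changes ranged from -0.30 to 0.04, and the median over all 10 genes was 0.01, against -0.01 over all tested genes. *Smad1*, *Smad5*, *Smad2*, *Smad3*, *Smad4* and *Smurf1* kept their sign under every scaling tried, of which library size only moved the median of all tested genes to 0.12.

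**Figure D3:**
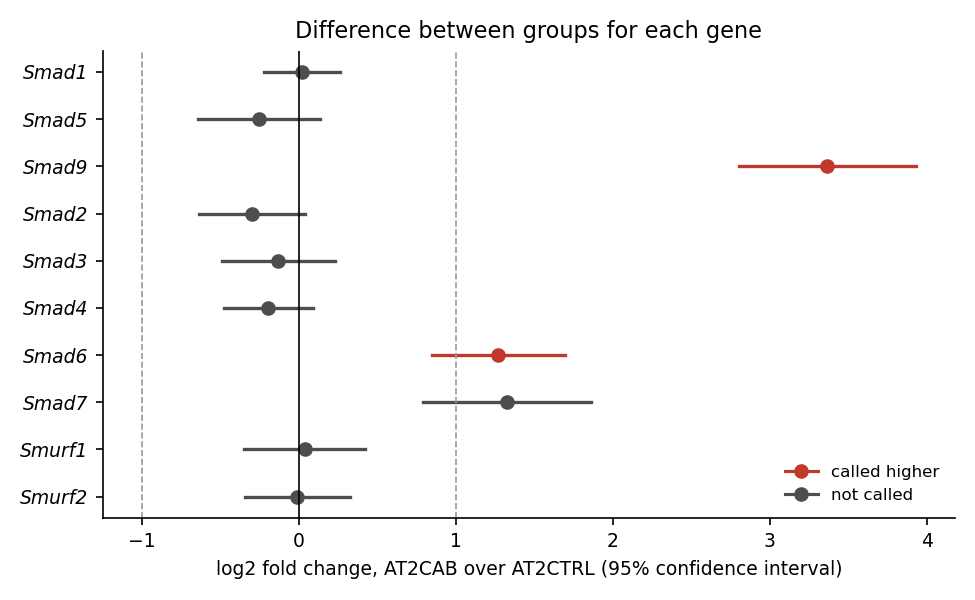
Log2 fold change (AT2CAB over AT2CTRL, x axis) of each of the 10 genes from edgeR, with points at the estimate, lines for the 95% confidence interval, dashed lines at 1 and -1 and the 2 called genes in red. The interval of *Smad9* runs from 2.80 to 3.93, those of *Smad6* and *Smad7* lie above 0, and those of the other 7 genes cross 0.

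To compare levels between genes, CPM was divided by the exonic length of each gene to give RPKM. In AT2CTRL the mean order was *Smad4* (27.3), *Smurf1* (26.3), *Smurf2* (21.7), *Smad3* (20.6), *Smad6* (18.3), *Smad7* (15.9), *Smad5* (15.0), *Smad1* (13.8), *Smad2* (9.69) and *Smad9* (0.758 RPKM). Most neighbors in this order had overlapping ranges, the exceptions being *Smad1* above *Smad2* and *Smad2* above *Smad9*. In AT2CAB the order was *Smad6* (44.2), *Smad7* (39.9), *Smurf1* (27.0), *Smad4* (23.9), *Smurf2* (21.6), *Smad3* (18.9), *Smad1* (14.0), *Smad5* (12.6), *Smad2* (7.88) and *Smad9* (7.84 RPKM), in which only *Smad3* above *Smad1* and *Smad5* above *Smad2* did not overlap. The inhibitory SMADs thus stood in the middle of the control order and at the top of the AT2CAB order, and *Smad9* was beside *Smad2* in AT2CAB.

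The makeup of the family was described from sums of RPKM, with no test. *Smad9* made up 2.05%, 3.56% and 2.10% of the summed BMP receptor-activated SMADs in AT2CTRL and 19.1%, 24.1% and 25.4% in AT2CAB. *Smad1* and *Smad5* therefore still held most of that sum in each AT2CAB library. The sum itself was 29.5 ± 2.22 RPKM in AT2CTRL and 34.4 ± 3.01 RPKM in AT2CAB (SD, n = 3), and its ranges overlapped. The 2 inhibitory SMADs summed to 33.7, 35.5 and 33.5 RPKM in AT2CTRL and to 63.8, 90.6 and 97.96 RPKM in AT2CAB. Their sum was thus nearly the same in the 3 control libraries, although *Smad6* and *Smad7* each varied there, and the ratio of *Smad6* to *Smad7* was 0.805, 1.5 and 1.26 in AT2CTRL and 1.25, 1.43 and 0.809 in AT2CAB. As a share of all 8 SMADs, the inhibitory SMADs held 28.3% ± 2.19 in AT2CTRL and 49.4% ± 7.53 in AT2CAB (SD, n = 3). Their ratio to the BMP receptor-activated SMADs was 1.24, 1.20 and 1.06 in AT2CTRL and 1.84, 2.43 and 3.14 in AT2CAB. The TGFβ receptor-activated SMADs summed to 30.3 ± 3.74 and 26.7 ± 4.28 RPKM and the Smurf ligases to 47.9 ± 7.99 and 48.5 ± 5.45 RPKM (SD, n = 3), with overlapping ranges. *Smad3* held 68.1% ± 0.820 of the former in AT2CTRL and 70.4% ± 1.64 in AT2CAB, and the ratio of *Smurf1* to *Smurf2* was 1.21 ± 0.0368 and 1.25 ± 0.147 (SD, n = 3).

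**Figure D4:**
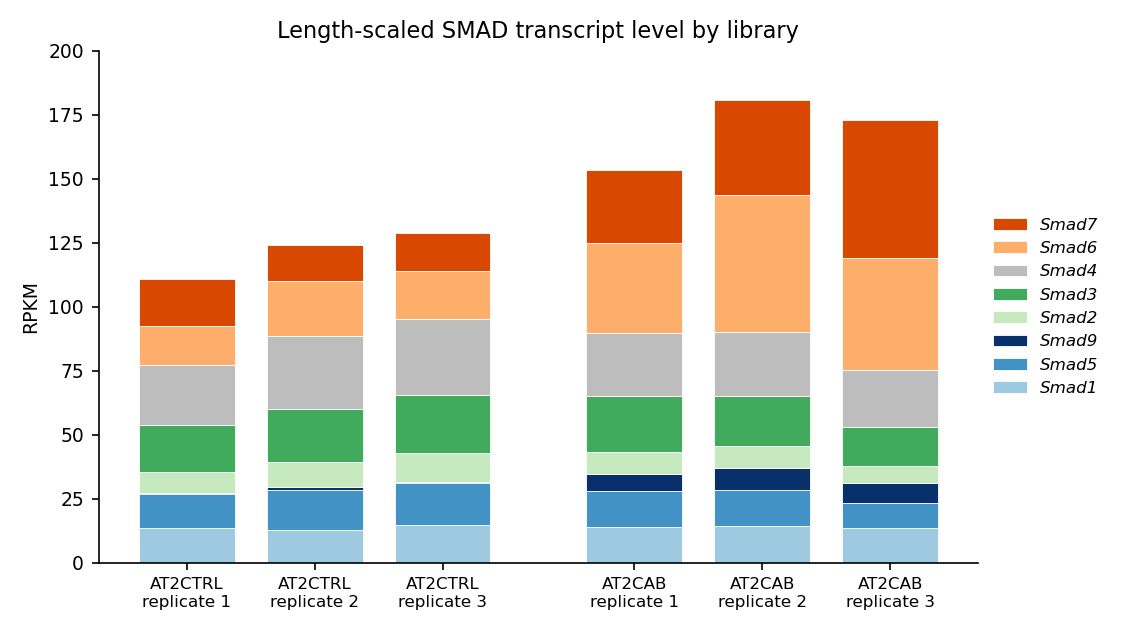
Stacked RPKM (y axis) of the 8 SMADs in each library, with BMP receptor-activated SMADs in blue, TGFβ receptor-activated SMADs in green, *Smad4* in gray and inhibitory SMADs in orange. The orange part is 33.5 to 35.5 RPKM in AT2CTRL and 63.8 to 97.96 RPKM in AT2CAB, while *Smad9* (dark blue) is barely visible in AT2CTRL.

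Within groups, several of the 10 genes differed in the library with reads on Y-linked genes. In both groups that library had the lowest CPM of its group for 6 of the 10 genes, namely *Smad5*, *Smad2*, *Smad3*, *Smad4*, *Smurf1* and *Smurf2*. Of the 10, *Smad7* was the gene for which that library was the highest in both groups. The share of all tested genes with either pattern was not computed, so neither is read as a trait of the family. *Wwp1*, a ubiquitin ligase gene outside the set, was also lowest in that library in both groups. Likeness of pattern was measured as the root mean square difference of log2(CPM + 1), centered on each gene's mean, over the 6 libraries and among 14583 genes with a mean of at least 1 CPM. This measure includes the difference between groups. Genes close to *Smad9*, *Smad6* or *Smad7* were therefore bound to be higher in AT2CAB, and calls among them are not separate evidence. The genes most like *Smad9* were *Aebp1* (0.19), *Sulf2* (0.30), *Kcnk3* (0.35), *Atoh8* (0.45) and *Ihh* (0.45), which were all called higher. Those most like *Smad6* were *Plac1* (0.12), *Adam10* (0.12), *Epha4* (0.14), *Ski* (0.14) and *Zbtb7c* (0.15), of which *Ski* was called. *Plac1* was low, with means of 0.463 CPM in AT2CTRL and 2.56 CPM in AT2CAB, and reached the cutoff of 1 CPM only through AT2CAB. Adding 1 to CPM narrows differences at such levels, and its log2 fold change was 2.46. Those most like *Smad7* were *Fam109a* (0.05), *Slc25a29* (0.11), *Ppp1r1b* (0.12), *Cenpu* (0.13) and *H2-Eb2* (0.14), of which *Ppp1r1b* was called. Between *Smad6* and *Smad7* the difference was 0.36, and *Smad7* ranked 237 in likeness to *Smad6*. This is a description of 6 libraries in which groups, age and reads on Y-linked genes all vary.

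Other genes of the pathway were read from 9 lists, each with the number called, the number at an unadjusted p under 0.05 and the median log2 fold change, which carries no test. As several medians depended on 1 library, their range with each library left out in turn follows in brackets. Upstream of the SMADs, 0 of 13 receptors and coreceptors were called. The largest log2 fold change among them was 0.65 for *Acvrl1*, a type I receptor of endothelial cells, and it was the single receptor with an unadjusted p under 0.05. *Acvrl1* and *Eng* are also on the endothelial marker list. The median of the receptors was 0.15 (from -0.029 to 0.19), so its sign was not stable, and DESeq2 and limma-voom called 0 as well. Of 17 tested genes on the ligand list, *Tgfb1*, a TGFβ ligand, was called higher. *Tgfb1* had 44.7, 44.5 and 43.6 CPM in AT2CTRL and 83.9, 90.04 and 109.6 CPM in AT2CAB. Its control values were almost identical and lay far below every AT2CAB value, and the log2 fold change was 1.10 (standard error 0.13, Benjamini-Hochberg adjusted p = 0.0172, edgeR quasi-likelihood test). The call of *Tgfb1* was lost with the replicate number as a block, without AT2CTRL replicates 1, 2 or 3 or AT2CAB replicate 2, and in the libraries from mice 12 weeks old. At an unadjusted p under 0.05, *Tgfb1* and *Tgfb2* were higher and *Bmp2*, *Bmp3* and *Bmp4* were lower. The median of the ligand list was -0.06 (from -0.19 to 0.24). That sign turned without AT2CTRL replicate 1 and without AT2CAB replicates 1 or 2. Among 10 tested inhibitors outside the nucleus 0 were called by edgeR, DESeq2 or limma-voom, *Nbl1* and *Fstl1* were higher at an unadjusted p under 0.05, and the largest log2 fold change was 0.82 for *Bmper*, with a list median of 0.35 (from 0.34 to 0.52).

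Genes that modify or degrade SMAD proteins had small differences. Of 15 other SMAD ubiquitin ligases and deubiquitinases 0 were called by edgeR, DESeq2 or limma-voom and 0 had an unadjusted p under 0.05. Their log2 fold changes ranged from -0.24, for the ligase *Wwp1*, to 0.21, with a median of -0.10 (from -0.12 to -0.027). Of 16 phosphatases, anchors and linker kinases 0 were called by any of the 3 tools, *Mapk3* and *Cdk8* were higher at an unadjusted p under 0.05, and the largest log2 fold change was 0.49 for the kinase gene *Mapk3*, with a median of -0.04 (from -0.073 to 0.016). Of 14 tested nuclear partners and coactivators 0 were called by any of the 3 tools, *Atf2* was lower at an unadjusted p under 0.05, and the largest log2 fold change was 0.48 for *Zfp423*, with a median of 0.08 (from 0.016 to 0.13).

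Among 11 nuclear corepressors, *Ski* was called higher. *Ski*, which represses SMAD-driven transcription, had 131, 175 and 169 CPM in AT2CTRL and 298, 368 and 313 CPM in AT2CAB. The groups were far apart relative to their spread, and the log2 fold change was 1.04 (standard error 0.15, Benjamini-Hochberg adjusted p = 0.0486, edgeR quasi-likelihood test). The call was lost without each single library in turn, with RLE size factors, limma-voom, the replicate block and age as a covariate, and within the 4 libraries of either subset. The related gene *Skil* was higher at an unadjusted p under 0.05 without being called, and the median of the corepressors was -0.04 (from -0.052 to 0.077).

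Downstream, 3 of 11 tested BMP response genes outside the SMADs were called higher, *Id1*, *Id3* and *Atoh8*. The Id genes encode inhibitors of basic helix-loop-helix factors and *Atoh8* encodes such a factor. *Id3* had 13.8, 15.6 and 11.2 CPM in AT2CTRL and 179, 247 and 545 CPM in AT2CAB, and *Id1* had 18.5, 20.8 and 19.2 CPM in AT2CTRL and 124, 177 and 411 CPM in AT2CAB. For both Id genes, as for *Smad7*, AT2CAB replicate 3 was the highest library and replicate 1 the lowest of its group. *Atoh8* had 5.16, 7.76 and 5.18 CPM in AT2CTRL and 63.1, 108 and 138 CPM in AT2CAB. The log2 fold changes were 4.58, 3.61 and 4.10 for *Id3*, *Id1* and *Atoh8*, with Benjamini-Hochberg adjusted p of 0.00758, 0.0172 and 0.00289 in the edgeR quasi-likelihood test, and all AT2CAB values lay above all AT2CTRL values. *Id2* and *Id4* were also higher at an unadjusted p under 0.05 and were called by DESeq2, and the median of the list was 0.65 (from 0.37 to 1.14). Without AT2CTRL replicate 1, 2 or 3, *Atoh8* was the 1 gene of this list called, and without AT2CAB replicate 2 *Atoh8* and *Id3* were. Of 11 tested TGFβ response genes 0 were called by edgeR or limma-voom, 6 were higher at an unadjusted p under 0.05 and the median was 0.48 (from 0.44 to 0.60). Without AT2CTRL replicate 3 or AT2CAB replicate 3 it was above that of the BMP response genes. That list includes *Col1a1*, which is also a mesenchymal marker. It shares *Skil*, which is among the 6, with the corepressors, and other genes with the corepressors and the phosphatases.

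**Figure D5:**
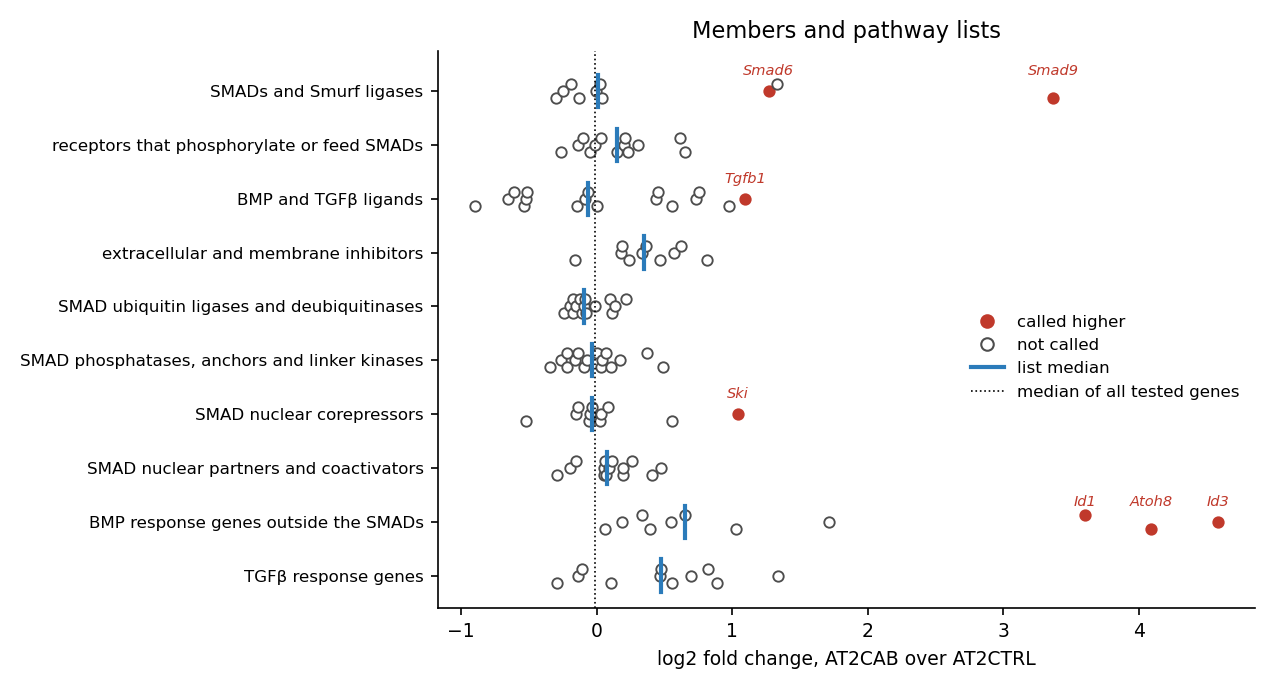
Log2 fold change (AT2CAB over AT2CTRL, x axis) of every tested gene of the SMADs and Smurf ligases and of 9 pathway lists, with called genes in filled red, list medians as blue bars and the median of all tested genes (-0.01) as a dotted line. Called genes are *Smad6* and *Smad9*, *Tgfb1*, *Ski*, *Id1*, *Atoh8* and *Id3*.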

How the data were processed

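Poly(A) RNA of sorted, lineage-labeled AT2 cells was sequenced as read pairs. The authors deposited raw read counts per gene, 1 column per library, made by trimming (Trimmomatic, after FastQC, and PRINSEQ for poly(A/T) tails), alignment to mm10 with HISAT2, removal of duplicates with SAMtools and counting on exons with featureCounts 1.5.3 of Subread. The submitters' notes give no other versions. The methods say that fragments were counted, but the command in the file header has no option for pairs, so values were treated as counts of reads. By that command strand was not used, and reads on overlapping genes or with several alignments were left out, so reads of near-identical paralogs may be missing. No SMAD or Smurf gene shared exonic bases with another gene of the table. The deposited table also gives the exonic length used for RPKM.

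Groups and replicate numbers came from the sample labels. Every pair of libraries within a group differed by more than counting noise. Counts were fitted in edgeR 4.0.16 (R 4.3.3) with the default filter at a minimum count of 10, TMM scaling, a quasi-likelihood test without covariates and Benjamini-Hochberg adjustment over 16723 genes. The standard error is the log2 fold change divided by the square root of F. The scripts were tested on simulated data. Alternatives were RLE, upper-quartile and library-size scaling, no filter, DESeq2 1.42.0 (the package named by the study), limma-voom (limma 3.58.1), no fold threshold, the replicate number as a block, covariates for age and for reads on Y-linked genes, libraries without such reads, halved counts, RPKM from raw library size and each library left out. The libraries from mice 12 weeks old were added as an alternative after seeing the data.

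The genes, the 9 pathway lists and the 7 marker lists (AT2, AT1, endothelial, mesenchymal, leukocyte, airway and erythroid) were chosen with earlier results of these data known. Named were all 10 genes, *Bmpr1a*, the Y-linked genes, list genes that were called or had the largest absolute log2 fold change of their list, the 5 genes most like *Smad9*, *Smad6* and *Smad7*, and leading markers. The result of 1 gene under this rule is not reported here. *Tgfb2*, *Bmp2*, *Bmp3*, *Bmp4*, *Nbl1*, *Fstl1*, *Cdk8*, *Atf2*, *Skil*, *Id2*, *Id4*, *Col1a1*, *Cyp2f2* and *Trp63* were chosen after their values were seen. Promoter sequences are from RefSeq on GRCm38.p6.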

Additional observations from a re-analysis of the deposited data

How the results depend on the processing

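The call of *Smad9* held under all 18 alternatives. Genes called higher numbered 119 with DESeq2, 109 with a Y-linked read covariate and 25 with limma-voom, against 38, and from 6 to 59 with 1 library left out. Genes called lower numbered 25 with DESeq2, 35 with that covariate, 8 in the 4 libraries without such reads, 5 without a filter and 5 with the replicate block, and 1 each with age as a covariate, library size only, upper-quartile scaling and limma-voom, against 2, and from 0 to 4 with 1 library left out. The libraries from mice 12 weeks old, a choice made after seeing the data, gave 0. Of the 10 SMAD and Smurf genes, 1 was called higher with RLE size factors, age as a covariate, limma-voom and the 12-week libraries, against 2, and from 1 to 3 with 1 library left out. DESeq2, both Y-linked alternatives and no filter gave 3, and every alternative gave 0 called lower. The sign of *Smurf2* turned, to a log2 fold change of 0.016 with RLE, 0.066 with upper-quartile scaling, 0.12 with library size only, 0.0026 with DESeq2, 0.0052 with limma-voom, 0.010 with halved counts, 0.055 in the 12-week libraries and between -0.15 and 0.083 with 1 library left out. In the 12-week libraries *Smad1* was at -0.028 and *Smurf1* at -0.022. With 1 library left out *Smad1* ranged from -0.025 to 0.076, *Smad3* from -0.22 to 0.040 and *Smurf1* from -0.099 to 0.19. Among list medians, with library size only, those of the ligands, the ubiquitin ligases, the phosphatases and the corepressors turned positive, at 0.068, 0.031, 0.094 and 0.092, as did those of the ligands, phosphatases and corepressors with upper-quartile scaling, at 0.015, 0.038 and 0.035, and that of the nuclear partners turned to -0.028 in the 4 libraries without Y-linked reads. The cause of these shifts was not tested, beyond the smaller number of libraries where some were left out. Blocking on replicate number, 35 genes were called higher and 5 lower, 28 of the former shared with the 38, and *Smad9* (3.40) and *Smad6* (1.26) were called. Libraries of the same number correlated in their deviations at -0.34, 0.27 and -0.52 for replicates 1, 2 and 3, so they share only a number. AT2CTRL replicates 1, 2 and 3 were alike in age and Y-linked reads to AT2CAB replicates 3, 1 and 2. These pairs correlated at 0.59, 0.17 and 0.47, and a block on them was not fitted. Depth limits none of the 10 genes, whose lowest count was 67, but if mates were counted separately, counting precision is overstated.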
